A study of Mus musculus with 30 samples.

Results

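The comparison described here asked what the miR-183 family, a trio of microRNAs, added to mRNA levels in otic progenitor cells that already carried the transcription factor Atoh1. The members were the 3 arrays of iMOP cells transfected with p183AT and the 3 arrays of iMOP cells transfected with pAT, 6 of the 30 arrays of the series, and every transcript cluster that carries a gene symbol was tested. There were 25341 such clusters of 41345 on the array. Of these, 23521 carried 1 symbol and 1820 carried several.

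iMOP cells are immortalized multipotent otic progenitors, a mouse line grown from a single clone of SOX2-expressing embryonic cochlear cells that received c-Myc transiently. All vectors shared an EF-1 alpha promoter, a human beta globin intron and a tandem dimer Tomato red fluorescent protein (RFP). In pAT the cassette encoded Myc-tagged murine Atoh1 and RFP joined through a 2A peptide, and p183AT carried in addition the miR-183, miR-96 and miR-182 hairpins inside the intron. The vectors without Atoh1 were pT (RFP alone) and p183T (the hairpins and RFP), and untransfected cells (UT) were also profiled. The same vectors were introduced into mouse embryonic stem cells (mESCs). Each group held 3 separate biological samples. RFP-positive cells were sorted 48 h after transfection, so each value is a mean over sorted cells of 1 clone and lower RNA per cell cannot be told apart from fewer cells that express a gene.

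MicroRNAs are cut from hairpin precursors and guide silencing complexes to messenger RNAs that pair with their seed, bases 2 to 8 of the mature strand. The bound messages are translated less and decay faster, mostly by modest amounts per target. miR-183, miR-96 and miR-182 are transcribed together and are abundant in sensory cells, including the hair cells of the inner ear. Atoh1 is the basic helix-loop-helix factor that starts hair cell formation and is also active in neuronal lineages. Mutation of the miR-96 seed causes hearing loss in mouse and human.

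The sequences are shown because seed pairing defines the messages that the family can act on. In the mouse genome (build GRCm38.p6, RefSeq) the hairpins lie on the minus strand of chromosome 6. They span 3820 bases, Mir183 and Mir96 lie 116 bases apart, and Mir182 lies a further 3453 bases downstream. The mature 5p strands follow with the seed in capitals.
miR-183-5p: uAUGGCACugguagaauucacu
miR-96-5p: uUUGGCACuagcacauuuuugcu
miR-182-5p: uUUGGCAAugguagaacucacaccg

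Counted from the 5′ end, the seeds of miR-96-5p and miR-182-5p differed by C8A and those of miR-96-5p and miR-183-5p by U2A, so that miR-182-5p and miR-183-5p differed at both positions (U2A and A8C). The 7-base sites that pair with the seeds are GUGCCAU for miR-183, GUGCCAA for miR-96 and UUGCCAA for miR-182. Among 1679 mature mouse microRNAs in the RefSeq table, 1 other, miR-1271-5p, had the miR-96 seed, and 0 others had the seed of miR-183-5p or miR-182-5p.

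The array reads the precursor transcript and not the mature strand, and the hairpins it reads are given here with the mature 5p strand in capitals. Their positions are chr6:30169668-30169737 for Mir183, chr6:30169446-30169551 for Mir96 and chr6:30165918-30165992 for Mir182.
Mir183 hairpin: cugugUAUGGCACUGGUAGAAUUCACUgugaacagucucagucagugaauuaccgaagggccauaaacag
Mir96 hairpin: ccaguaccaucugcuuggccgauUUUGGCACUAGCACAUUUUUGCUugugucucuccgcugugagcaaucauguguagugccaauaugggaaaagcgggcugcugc
Mir182 hairpin: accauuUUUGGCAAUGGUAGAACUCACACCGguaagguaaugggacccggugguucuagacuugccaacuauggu

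Values are on the log2 scale of the array, and clusters with a group mean below log2 5 are called dim in that group. The arrays were alike in scale, with medians between 4.83 and 4.91 over the 6 arrays and correlations between replicates from 0.983 to 0.990. Of the iMOP arrays, pT replicate 2 stood apart, with a lowest within-group correlation of 0.975. In pAT 52.3% and in p183AT 52.7% of the clusters were dim. The label iMOP held against its markers: Dlx5, an otic homeobox gene, had a mean of 9.37 in pAT and 9.42 in p183AT, Eya1 8.66 and 8.64, and Sox2 7.79 and 7.86. Mean levels over 10 mesenchyme markers lay between 4.72 and 4.92 in pAT and between 4.75 and 4.83 in p183AT. Over 8 pluripotency markers they lay between 4.33 and 4.44 and between 4.33 and 4.38. Over 6 glial markers they lay between 5.43 and 5.63 and between 5.29 and 5.61. Not all of these markers were dim: 5 of 10 mesenchyme, 2 of 8 pluripotency and 3 of 6 glial markers reached log2 5 in at least 1 group.

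All 3 hairpins of the miR-183 family rose with p183AT and they alone passed an adjusted p of 0.05. Mir182 was measured at 3.34, 4.08 and 3.96 on the pAT arrays and at 7.01, 7.21 and 6.83 on the p183AT arrays. The difference was 3.23 on the log2 scale (SE 0.20), a fold of 9.35, with a limma adjusted p of 5.94e-08. Every p183AT array lay far above every pAT array. Mir96 read 3.78, 3.79 and 3.41 with pAT and 6.90, 6.65 and 6.54 with p183AT, a difference of 3.04 (SE 0.19, limma adjusted p = 5.94e-08). Mir183 read 2.93, 3.54 and 3.89 against 6.16, 6.54 and 6.0, a difference of 2.78 (SE 0.22, limma adjusted p = 1.4e-06). For each hairpin taken alone, the exact two-sided permutation test of 3 arrays against 3 gave p = 0.1, the smallest that it can give.

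The hairpins were dim in every group without the family, UT and pT included. With the family their means were lower in the presence of Atoh1 than in its absence. Mir182 read 7.84, 8.40 and 7.97 on the p183T arrays, and its p183AT mean was lower by 1.05. For Mir96 and Mir183 the p183AT means were lower by 0.70 and 0.74. The p183T and p183AT arrays did not overlap for any of the 3 hairpins (exact two-sided permutation p = 0.1 for each), and limma gave adjusted p-values of 0.056 for Mir182, 0.46 for Mir96 and 0.553 for Mir183. Among the genes that flank the hairpins on chromosome 6, Nrf1, a transcription factor gene, differed by -0.07 between p183AT and pAT and Zc3hc1 by 0.01, with an adjusted p of 1 by limma.

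**Figure D1:**
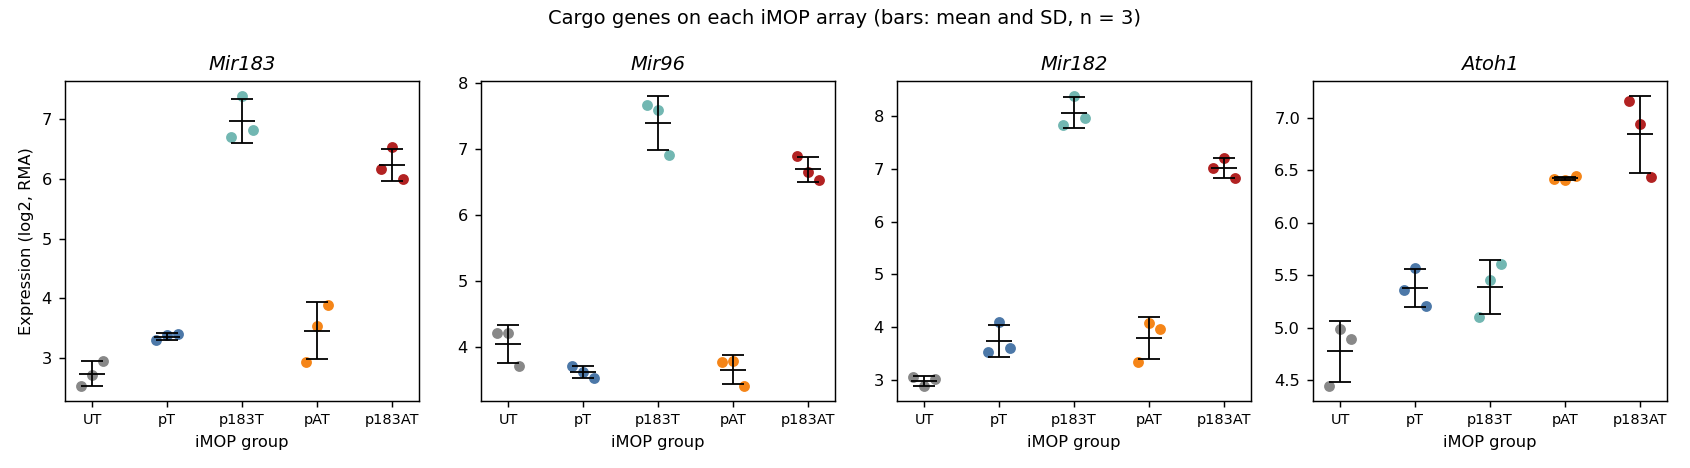
Level of the genes that the vectors carry on each of the 15 iMOP arrays (vertical axis, log2 RMA value; horizontal axis, group; points, arrays; bars, mean and SD, n = 3). The hairpins of p183AT lie between 6.0 and 7.21, above every pAT array and below the p183T means, and Atoh1 overlaps between pAT and p183AT.

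Atoh1 itself was present on both sides. It read 6.42, 6.41 and 6.44 on the pAT arrays and 7.16, 6.94 and 6.44 on the p183AT arrays. The groups overlapped, since p183AT replicate 3 lay at the pAT level, and the difference of 0.42 (SE 0.19) was not called (limma adjusted p = 1, exact two-sided permutation p = 0.2). Its unadjusted limma p was 0.0376. In pT the Atoh1 mean was 5.38 and in p183T 5.39. The same array, p183AT replicate 3, was also the lowest of its group for Mir183, Mir96 and Mir182. Reads of the vector and of the endogenous Atoh1 gene fall on 1 cluster and cannot be told apart.

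Across the transcriptome, 3 clusters were called higher in p183AT, 0.0118% of the 25341 tested, and 0 were called lower. At an unadjusted p under 0.05, 485 clusters were higher (1.91%) and 525 lower (2.07%), 3.99% in all. The groups did not overlap for 923 higher (3.64%) and 1301 lower clusters (5.13%), 8.78% in all. The middle 90% of log2 fold changes lay between -0.27 and 0.28, with a median of -0.01 and a median SE of 0.16. At the study's threshold for this comparison, an unadjusted p under 0.06 with a fold of 1.5 or more, limma gave 77 higher (0.304%) and 38 lower clusters (0.15%), 0.454% of those tested. The methods' one-way test gave 43 and 20, of which 27 clusters were dim in both groups, and 0 after Benjamini-Hochberg adjustment. The lowest adjusted p outside the vector's own genes was 0.14. Of 16004 clusters without a symbol, fitted together with the rest, 0 were called and 967 had an unadjusted p under 0.05 in limma.

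**Figure D2:**
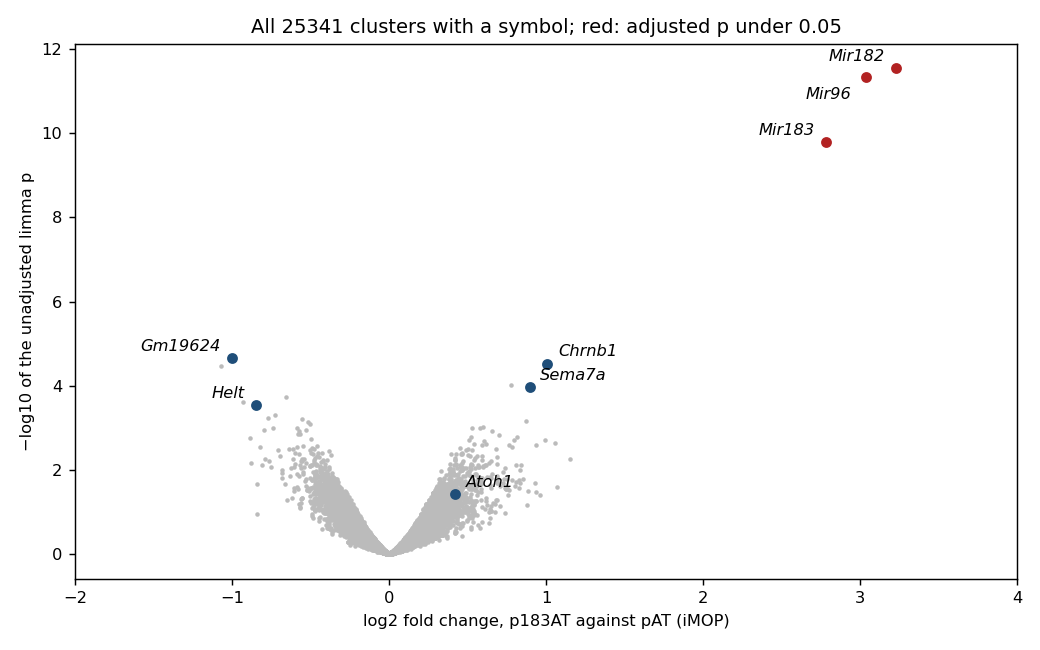
Log2 fold change of p183AT against pAT (horizontal axis) and -log10 of the unadjusted limma p (vertical axis) for all 25341 clusters with a symbol. The hairpins (red) stand apart at 2.78 to 3.23, while Chrnb1, Sema7a, Gm19624, Helt and Atoh1 (blue) lie at the edge of or within the remaining clusters (gray) and were not called.

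The genes named by the study for the combination were large differences that stopped short of a call. They had been chosen on these arrays, so their sizes are a description and not independent evidence. Of 11 genes, 6 were higher and 4 lower without overlap between the groups, and 3 were dim in both groups. The groups did not overlap for 3.64% of all clusters higher and 5.13% lower.

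Chrnb1 encodes the beta subunit of the muscle nicotinic acetylcholine receptor. It read 4.83, 5.41 and 4.91 with pAT and 6.21, 5.83 and 6.12 with p183AT. The groups did not overlap, and the difference was 1.01 (SE 0.18, limma adjusted p = 0.145). Without pAT replicate 2, the highest pAT array, the difference was 1.19 and was called (limma adjusted p = 0.0447). No other iMOP group reached the p183AT level, since the means were 4.97 in pT and 4.96 in p183T. Sema7a, a membrane-anchored semaphorin, read 6.97, 6.98 and 6.70 with pAT and 7.92, 7.96 and 7.45 with p183AT. This was a difference of 0.89 (SE 0.18, limma adjusted p = 0.332) on top of a level that pAT had already raised above pT.

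Nhlh1, a neuronal basic helix-loop-helix gene, read 5.88, 5.51 and 5.53 with pAT and 6.64, 6.74 and 5.88 with p183AT. The third p183AT array touched the highest pAT array, and the difference was 0.78 (SE 0.23, limma adjusted p = 1). Myo6, an unconventional myosin of hair cell stereocilia and a deafness gene, read 5.84, 5.64 and 5.28 against 5.90, 6.58 and 6.33. Here 1 p183AT array lay just above the pAT range and the other 2 well above it. Gadd45g, a growth arrest and DNA damage gene, read 7.61, 7.67 and 7.50 against 8.71, 8.20 and 7.94, and Abcd2, a peroxisomal transporter of very long chain fatty acids, 5.81, 5.80 and 4.66 against 6.33, 6.88 and 6.52. Both were higher on every p183AT array, by 0.69 and 1.15, with an adjusted p of 1 by limma. The zinc finger gene Zfp457 was 0.82 higher but dim, with means of 2.40 and 3.21.

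Helt, a transcriptional repressor related to the Hairy and Enhancer of split family, was lower on every p183AT array. It read 6.17, 6.10 and 5.48 with pAT and 5.15, 4.85 and 5.21 with p183AT, a difference of -0.85 (SE 0.19, limma adjusted p = 0.665). All pAT arrays were above all p183AT arrays, for which the pT mean was 4.75. Myo1c, a motor of the hair cell's mechanical adaptation, read 6.33, 6.59 and 6.70 against 5.83, 5.77 and 6.28, a difference of -0.58. Mnd1 and Trdn, of meiotic recombination and of muscle calcium release, were lower by 0.88 and 0.56 but dim in both groups. Atoh1 was 0.42 higher on average in p183AT than in pAT, as given above, and p183AT replicate 3 was the lowest of its group for Atoh1, Sema7a, Nhlh1 and Gadd45g but not for Chrnb1, Myo6, Abcd2 or Zfp457. The part of the Atoh1 level in these differences was not tested.

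**Figure D3:**
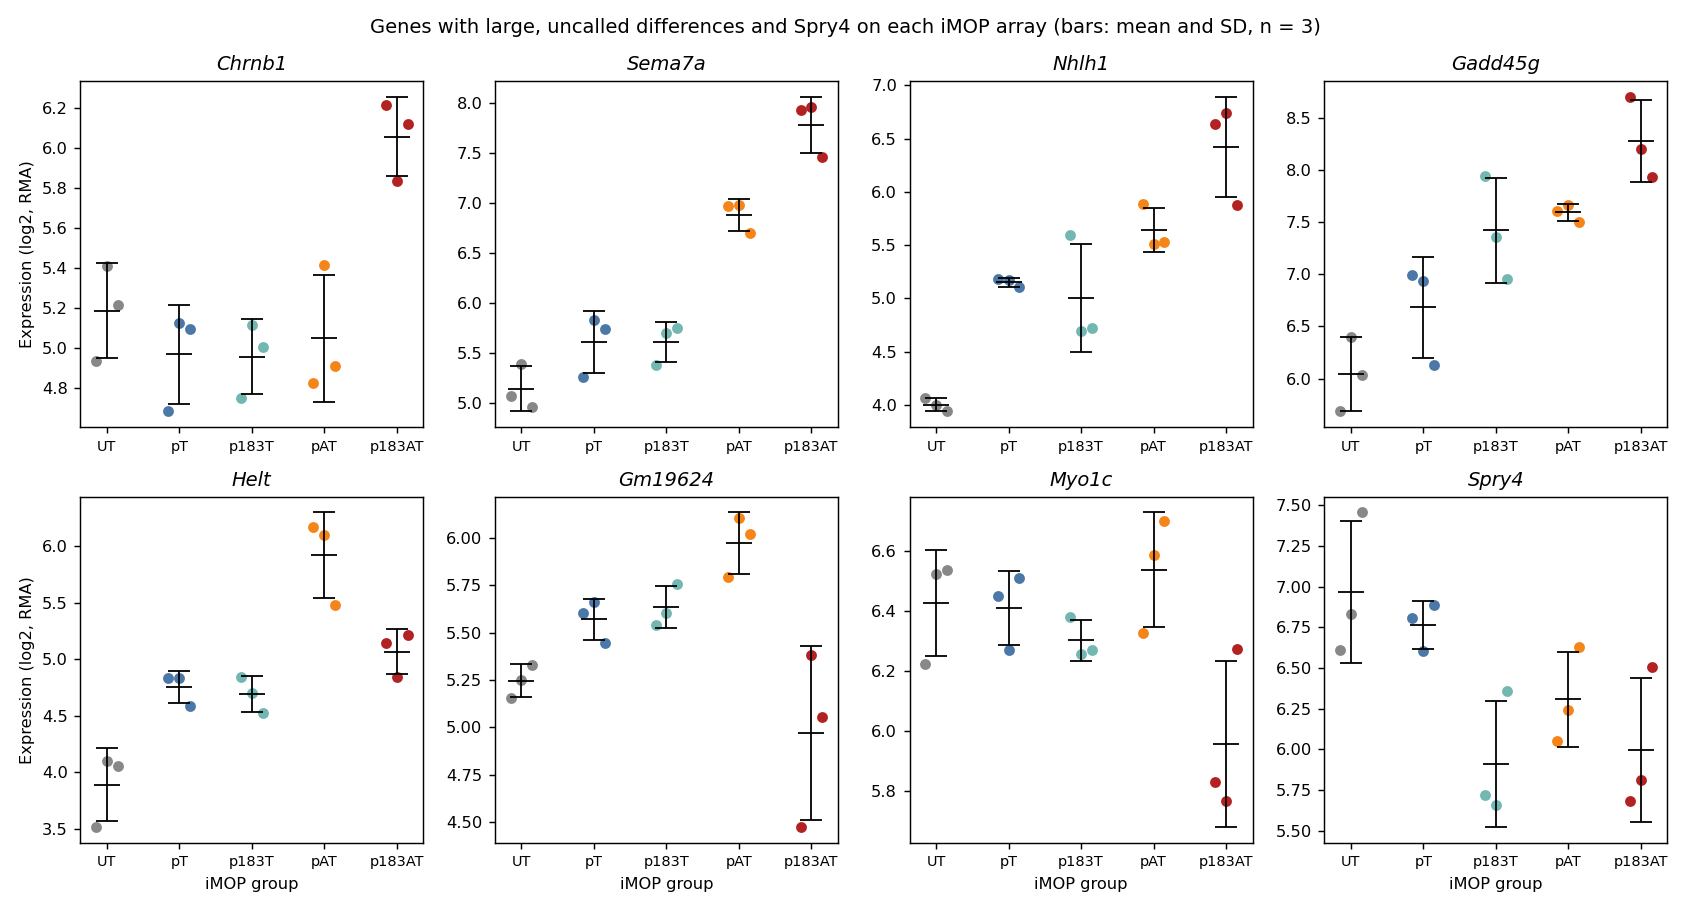
Level of 7 genes with large uncalled differences between pAT and p183AT, and of Spry4, on each iMOP array (vertical axis, log2 RMA value, not starting at 0; points, arrays; bars, mean and SD, n = 3). Chrnb1 is highest in p183AT, with means from 4.96 to 5.19 elsewhere, Sema7a steps up from pT to pAT to p183AT, Helt is highest in pAT, and Spry4 is lowest with p183T and p183AT.

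Over all clusters with 1 symbol, the genes above included, 117 were higher and 146 lower with an unadjusted p under 0.05, no overlap between groups and a mean of at least log2 5 in one group. None beyond the hairpins was called. Among the lower ones the pseudogene Gm19624 was first. It read 5.79, 6.11 and 6.02 with pAT and 4.48, 5.38 and 5.05 with p183AT, a difference of -1.0 (SE 0.18, limma adjusted p = 0.14). S100a16, a calcium-binding protein gene, was 0.87 higher, but the p183AT arrays spread from 4.59 to 5.85 and the pAT arrays from 4.18 to 4.31. Alpl, the tissue-nonspecific alkaline phosphatase, was 0.53 lower and Creb3l2, a transcription factor of the secretory pathway, also 0.53 lower. A second Alpl cluster, with means of 5.39 in pAT and 5.23 in p183AT, differed by -0.15. Taf1d, a gene of the RNA polymerase I initiation complex that hosts small nucleolar RNAs in its introns, stood in both directions. Of its clusters 1 was 0.94 higher and 1 was 0.76 lower, and the brightest, with means of 12.89 and 12.78, differed by -0.10, so the gene as a whole has no direction here.

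The study had named predicted targets of the family, and these were not called in either direction. Seed pairing predicts lower levels of targets. Of 12 measured genes, 10 lay below 0 and 2 above, against 52.7% of all clusters below 0. Their median was -0.25 beside -0.01 for all clusters. None reached an unadjusted p of 0.05 in either direction. The list had been drawn from these samples, so it is not independent evidence of its direction. The median moved to -0.10 without p183AT replicate 2 and to -0.14 without replicate 1, and over all 6 arrays left out in turn it ranged from -0.32 to -0.10 with 8 to 10 genes below 0.

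Spry4, a feedback inhibitor of receptor tyrosine kinase signalling, read 6.05, 6.24 and 6.63 with pAT and 5.68, 5.81 and 6.50 with p183AT. The groups overlapped at a difference of -0.31 (SE 0.24), whereas without Atoh1 the p183T arrays (5.72, 5.66 and 6.36) all lay below the pT arrays (6.81, 6.60 and 6.89). The pAT arrays already lay toward the p183T level, with a mean 0.46 below pT. Slc39a1, a zinc importer, read 8.07, 8.29 and 7.99 against 8.41, 7.26 and 7.34. Its difference of -0.45 came from 2 of 3 p183AT arrays, with the third above every pAT array. Plod2, a collagen lysyl hydroxylase, read 7.37, 7.09 and 7.03 against 6.53, 7.16 and 7.01, and here 1 p183AT array carried the difference of -0.27. Ankrd27, a regulator of endosomal Rab proteins, differed by -0.27, Rdh10, an enzyme of retinoic acid synthesis, by -0.29, Tbx1, an otic T-box factor, by -0.24 and the immediate early gene Egr1 by -0.10. Eif4a2, a translation helicase whose introns host small nucleolar RNAs, differed by 0.53 (SE 0.27) on its brightest cluster. Its other clusters differed by 0.01 (means of 7.93 and 7.94) and by 0.215 (means of 8.21 and 8.42).

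A wider list of 27 targets reported elsewhere for the family stayed near 0. Of them 10 were above and 17 below, with a median of -0.03, and the extremes were -0.24 for the adenylate cyclase gene Adcy6 and 0.22 for the pigment cell factor Mitf. None had an unadjusted p under 0.05. Foxo1, a forkhead factor, differed by -0.17 and Idh2, the mitochondrial isocitrate dehydrogenase, by -0.20. The 13 genes of the microRNA machinery, the enzymes and partner proteins that make and use microRNAs, lay between -0.25 and 0.26 and none passed that threshold either. Of the other 475 microRNA hairpins, 10 were higher and 22 lower at an unadjusted p under 0.05. Over all clusters 1.91% were higher and 2.07% lower at that p. The median of these hairpins was 0.02, and only 89 of them were not dim.

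Hair cell genes were spread around 0. Of 39 genes measured, 14 were not dim, 17 were above 0 and 22 below, and the median was -0.06. At an unadjusted p under 0.05, 3 were higher (Nhlh1 0.78, Myo6 0.69 and Barhl1 0.38) and 1 lower (Strc, the stereocilin gene, by 0.32), and Barhl1 and Strc were dim in both groups. Over all clusters 1.91% were higher and 2.07% lower at that p. The defining genes stayed low: Pou4f3, the hair cell survival factor, differed by -0.08 at a p183AT mean of 5.0 and Myo7a by 0.01 at 4.7. Gfi1, a zinc finger repressor of the same program, differed by -0.17. The mean over the list lay between 4.77 and 4.87 on the pAT arrays and between 4.80 and 4.85 on the p183AT arrays. The list holds Nhlh1, Rab15 and Myo6, which the study had named on these samples, Nhlh1 and Myo6 from p183AT against pAT itself.

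Genes that the study had named for Atoh1 in iMOP cells leaned upward. Of 27 genes, also chosen on these samples, 9 were higher and 1 lower at an unadjusted p under 0.05. Over all clusters 1.91% were higher and 2.07% lower at that p. Of the 27, 19 were above 0, and the median was 0.13. Some of them, Chrnb1, Sema7a, Nhlh1 and Helt included, had been named by the study from p183AT against pAT itself. Mfap4, a matrix glycoprotein, was 0.75 higher, Rab25, an epithelial GTPase, 0.50 higher and Actc1, the cardiac actin gene, 0.65 higher, while the Notch ligands Dll1 and Dll3 differed by 0.07 and 0.03. Rab15, a GTPase gene, differed by -0.23 and Id2, an inhibitor of helix-loop-helix factors, by -0.09. The comparisons that add Atoh1 share arrays with this one and are set side by side only. With pAT against pT, 5 clusters were called higher (0.0197% of those tested), among them Sema7a at 1.27, Rab25 at 1.39, Rab15 at 1.84 and Helt at 1.17. With p183AT against p183T, 21 were called higher (0.0829%), among them Sema7a at 2.17, Nhlh1 at 1.42 and Chrnb1 at 1.10, and 4 clusters were called in both. The mean over the 27 genes lay between 5.92 and 6.04 on the pAT arrays and between 6.13 and 6.23 on the p183AT arrays, without overlap, beside the Atoh1 difference of 0.42, whose part in this was not tested. Genes chosen from this same comparison are part of that mean, so it is a description only.

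The Notch pathway, which limits hair cell number through lateral inhibition, was spread around 0. Of 23 genes 13 were above and 10 below, with a median of 0.01 and with Helt the 1 gene under an unadjusted p of 0.05. At that p, 1.91% of all clusters were higher and 2.07% lower. Hes5, a Notch effector, read 7.40, 7.48 and 8.01 with pAT and 9.03, 7.63 and 7.84 with p183AT, so that its difference of 0.54 came from 1 array. Hes1 differed by -0.14 and Notch1 by -0.19. Among 20 proneural and neuronal genes Nhlh1 was higher and Pou4f1, a sensory neuron factor, lower by 0.46 at that p. Of 23 otic progenitor and supporting cell genes 17 were below 0, with a median of -0.11, and Pax2, an otic patterning gene, was lower by 0.37 but dim. Fabp7, a fatty acid binding protein of progenitors and glia, read 7.57, 6.89 and 6.95 against 8.74, 7.20 and 6.86, and 1 array again carried its difference of 0.46.

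Feedback and immediate early genes of MAPK signalling were spread around 0 with Atoh1 present. Of 24 genes, 11 were above 0 and 13 below, with a median of -0.01, and none passed an unadjusted p of 0.05. Dusp6, the ERK phosphatase, read 7.64, 7.82 and 8.36 with pAT and 7.24, 7.15 and 8.10 with p183AT, and Etv5, an ETS factor downstream of FGF signalling, read 8.51, 8.33 and 8.56 against 8.09, 7.76 and 8.22. Both had differences of -0.44. A second Etv5 cluster, with means of 6.25 in pAT and 6.38 in p183AT, differed by 0.13, and a dim one of Dusp6 by 0.06. Without Atoh1, 18 of these 24 genes were below 0, as were 50.7% of all clusters, the median was -0.17, and 4 were lower at an unadjusted p under 0.05, where 1.98% of all clusters were. Dusp6 differed there by -0.83, Spry4 by -0.85 and Egr1 by -0.61. The study had named Spry4 and Egr1 as repressed targets from this same comparison. Both count among the 4, so these counts are not independent evidence. None of the 24 genes was called in the test of the difference between both settings. Cell cycle genes had a median of -0.05 over 26 genes, p53 targets 0.10 over 14, interferon genes, of which 1 was not dim, 0.02 over 17 and cholesterol synthesis genes 0.04 over 17, and none in these lists had an unadjusted p under 0.05.

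Small nucleolar RNAs lay mostly above 0 with p183AT. They guide chemical modification of ribosomal RNA and are mostly released from introns of host genes. Of 73 with a cluster of their own, 70 were above 0 and 3 below, against 47.3% of all clusters above 0. The median was 0.44 beside -0.01 for all. At an unadjusted p under 0.05, 18 were higher and 0 lower, 19 were higher without overlap, and 0 were called. Over all clusters 1.91% were higher and 2.07% lower at that p, and 3.64% were higher without overlap. Snora31 read 7.03, 7.81 and 7.89 with pAT and 9.37, 8.73 and 7.83 with p183AT. Here the groups overlapped, while Snord71 (5.99, 6.44 and 6.30 against 7.85, 6.84 and 6.91) and Snora30 (6.92, 6.98 and 7.24 against 8.20, 8.12 and 7.62) did not. Rabggtb, a host gene of small nucleolar RNAs, differed by 0.88. Tcp1, another host, had a cluster of means 5.75 and 6.68 that differed by 0.93, while its brighter cluster, with means of 9.95 and 10.16, differed by 0.21.

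The mean over these 73 RNAs was 8.64, 9.08 and 8.89 on the pAT arrays and 9.61, 9.36 and 9.02 on the p183AT arrays, so the groups overlapped. It was 8.21 to 8.25 in untransfected cells and 9.0, 10.35 and 9.50 on the pT arrays. The same RNAs also differed between replicates: they were the leading genes of the largest axis of spread within iMOP groups, which held 46.2% of the variance within groups. The ends of that axis were pT replicates 2 and 1, and p183AT replicates 1 and 3 lay apart on it at scores of 16.5 and -15.1. Without p183AT replicate 1 the median was 0.31 and 2 RNAs were higher at an unadjusted p under 0.05. Without pAT replicate 1 the number was 6 at a median of 0.35, without p183AT replicate 2 it was 11, and without p183AT replicate 3 it was 32 at a median of 0.63. The part of this spread in the shift was not tested.

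**Figure D4:**
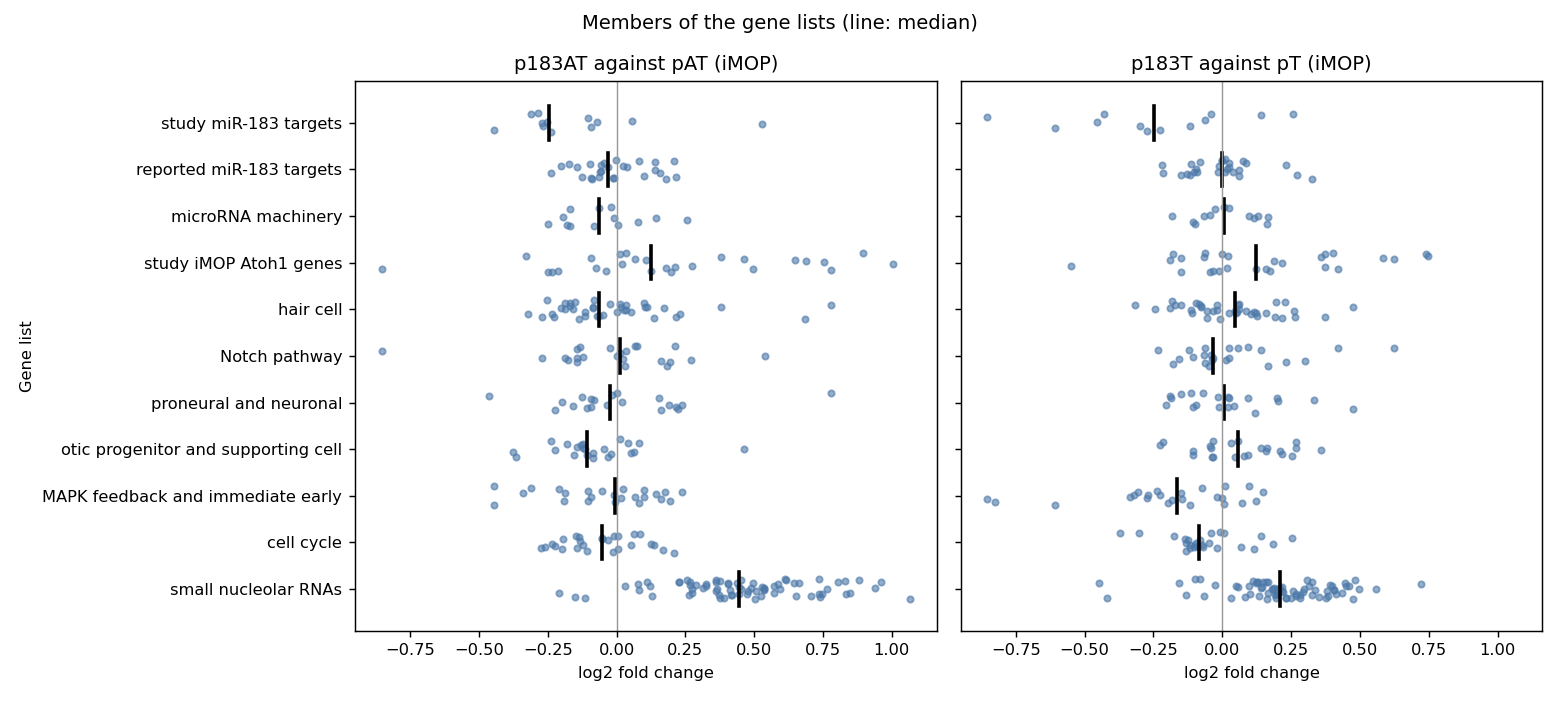
Log2 fold changes of the members of 11 gene lists for p183AT against pAT (left) and p183T against pT (right) in iMOP cells (points, genes; black lines, medians). Small nucleolar RNAs have medians of 0.44 and 0.21, the study's predicted targets -0.25 and -0.25, and the other lists lie within 0.17 of 0.

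The same family was also tested without Atoh1, p183T against pT, on 6 other iMOP arrays. The hairpins were again the 3 clusters called (0.0118% of those tested), with differences of 4.33 for Mir182, 3.77 for Mir96 and 3.62 for Mir183. At an unadjusted p under 0.05 there were 980 clusters (3.87%), 1.88% of those tested higher and 1.98% lower. The difference between both settings was called for 0 clusters in limma, with 893 at an unadjusted p under 0.05 (3.52%). It was -1.11 for Mir182 (SE 0.28), -0.74 for Mir96 (SE 0.27) and -0.84 for Mir183 (SE 0.31).

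Genes with large differences in the presence of Atoh1 varied in its absence, and no difference between settings was called. Chrnb1 was at -0.01 and Sema7a at -0.00 without Atoh1, and the differences between settings were 1.02 (SE 0.26) and 0.89 (SE 0.26), each with an adjusted p of 1 in limma. For Gm19624 the difference was -1.07 (SE 0.25) and for Helt -0.79 (SE 0.27), also with an adjusted p of 1. Fut11, a fucosyltransferase gene, had a cluster at 0.79 with Atoh1 and -0.15 without. Its other cluster, with means of 6.43 in pAT and 6.55 in p183AT, differed by 0.12 with Atoh1. Abcd2 was at 1.15 with Atoh1 and 0.40 without, Zfp457 at 0.82 and 0.45, and Gadd45g at 0.69 and 0.74.

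Averaged over both settings, 6 arrays against 6, limma called the 3 hairpins higher (3.20 to 3.78) and 1 cluster lower, 0.0158% of those tested. That cluster carries 2 gene symbols and is therefore not named, and it lay at -0.67 (SE 0.11, limma adjusted p = 0.0375) with means of 2.63 in pAT and 2.04 in p183AT, far below the dim limit, and it was not called with a replicate block, with only the compared groups or all 30 arrays fitted, with array weights, or without most single arrays. Of the named targets, 5 were lower at an unadjusted p under 0.05, where 2.36% of all clusters were lower, 1.99% higher and 4.35% either: Spry4 by 0.58, Slc39a1 by 0.37, Ankrd27 by 0.36, Egr1 by 0.36 and Plod2 by 0.35. All had an adjusted p of 1. The list had been drawn from these samples, in part from the p183T and pT arrays averaged here, so the count is not independent evidence. Among genes whose groups did not overlap in either setting, 10 were higher and 31 lower in both at an unadjusted p under 0.05 for the average. In the comparison without Atoh1, groups did not overlap for 3.31% of all clusters higher and 3.86% lower. With Atoh1 these shares were 3.64% and 5.13%. The share of all clusters that met both at once was not counted. The 10 include the 3 hairpins, and the counts are not read as a shared effect. The hairpins led, followed by Ighg3, an immunoglobulin constant region, at 0.47, Bex4 at 0.36 (its brighter cluster differed by 0.11 between p183AT and pAT), Gpatch11 at 0.24, the thioredoxin gene Txn1 at 0.23 and the ribosomal protein gene Rps12 at 0.19. On the lower side were Tbc1d24, a vesicle trafficking and deafness gene, at -0.44, Mrps27, a mitochondrial ribosome gene, at -0.44, Jade2 at -0.33, Tlcd3a at -0.33 and Gins2, of the replication helicase, at -0.32.

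Tlcd3a showed what such a small difference looked like. It read 8.39, 8.53 and 8.43 with pAT and 8.15, 8.15 and 8.22 with p183AT, and 8.54, 8.21 and 8.39 with pT and 7.99, 7.93 and 8.08 with p183T. In both settings the arrays with the family lay below all arrays without it. That separation was a condition for naming the gene and is not a result. Ighg3, named by the same condition, was the mirror image. It read 5.77, 5.76 and 5.53 against 6.17, 6.33 and 6.09 in the presence of Atoh1. Without Atoh1 it read 5.86, 5.61 and 5.30 against 6.09, 5.99 and 6.01. A second Ighg3 cluster, dim in both groups, differed by -0.12 between p183AT and pAT.

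Since both comparisons use different arrays, their log2 fold changes could be set against each other across clusters. Clusters are not independent replicates, and some share probes, so the correlations are a description. Over all 25341 clusters Pearson's r was 0.128 and 52.8% had the same sign. Without the genes that the vectors carry r was 0.0871. The likeness followed the level: it was -0.03 for 7911 clusters with a mean under log2 4 and -0.00 between 4 and 6, then 0.29 between 6 and 8 (n = 5752), 0.57 between 8 and 10 (n = 1561) and 0.75 at 10 and above (n = 399, 80.2% of the same sign). For clusters of at least log2 6 on at least 3 arrays, again without the vector's genes, r was 0.34 with 60.7% of the same sign (n = 9127).

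Small nucleolar RNAs were part of the upper range but not all of it. Among protein-coding genes other than ribosomal protein genes, r was 0.28 between 6 and 8, 0.50 between 8 and 10 and 0.63 at 10 and above (n = 184). For 83 ribosomal protein genes it was 0.62. Leaving out 1 array at a time moved the value of 0.34 to between 0.19 and 0.37, lowest without p183AT replicate 2 and without pT replicate 1 (0.20), with 0.22 without pAT replicate 3. Removing the leading axis of within-group spread left it at 0.34. That axis correlated at only 0.04 with p183AT against pAT and at -0.01 with p183T against pT. Its removal could therefore hardly change the value, and no conclusion is drawn from it. For small nucleolar RNAs the median without Atoh1 was 0.21, with 65 of 73 above 0 beside 49.3% of all clusters, and it turned to -0.08 with 23 above 0 without pT replicate 1, was 0.07 without p183T replicate 2 and 0.56 without pT replicate 2. In all, 54 clusters passed an unadjusted p of 0.05 in both comparisons. Of these 6 were higher in both, 24 lower in both and 24 went in opposite directions.

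**Figure D5:**
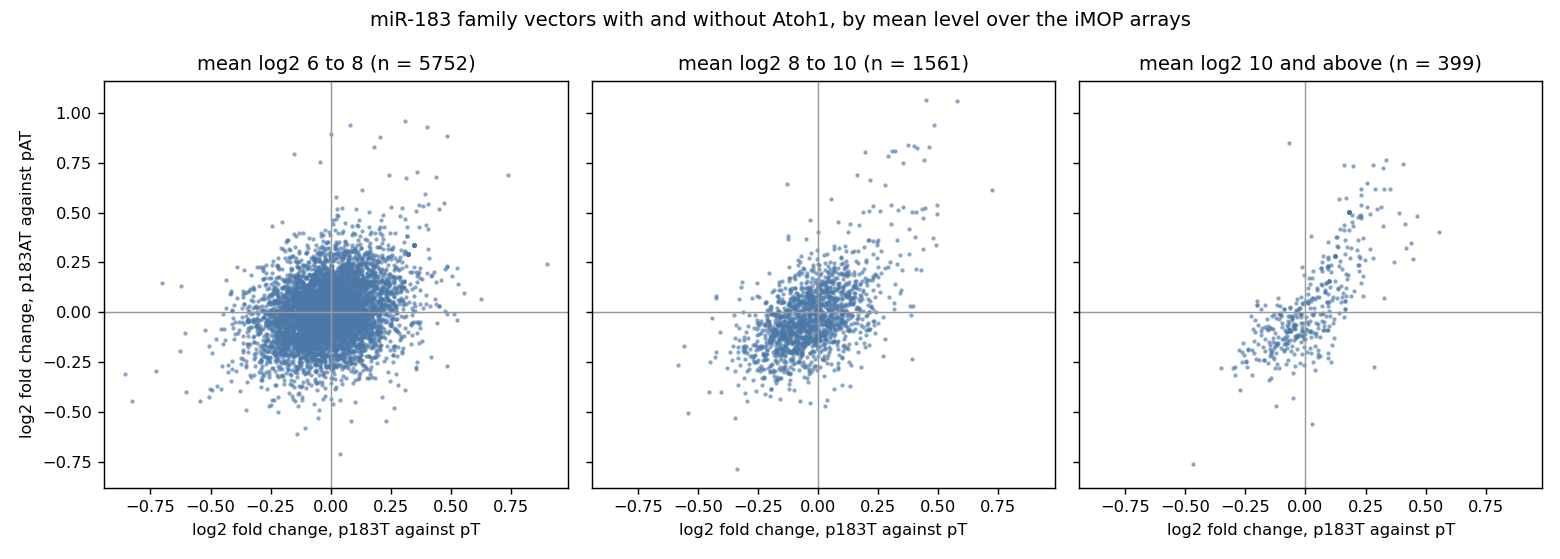
Log2 fold change of p183AT against pAT (vertical axis) and of p183T against pT (horizontal axis) for clusters with a mean of log2 6 to 8, 8 to 10, and 10 and above over the 12 transfected iMOP arrays, without the genes that the vectors carry. The cloud is nearly round in the first panel (r = 0.29) and narrows along the diagonal in the third (r = 0.75).

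In mESCs the family with Atoh1 called the same 3 hairpins (0.0118% of those tested), at 5.01 for Mir182, 5.62 for Mir96 and 3.78 for Mir183. The difference between the cell lines was called for 1 cluster (0.00395%), Mir96, whose difference was lower by 2.59 in iMOP cells (SE 0.40, limma adjusted p = 0.00959). The mean of Mir96 with p183AT was 8.73 ± 0.95 in mESCs and 6.70 ± 0.19 in iMOP cells (SD, n = 3). Without mESC pAT replicate 1 or 2, iMOP pAT replicate 2 or iMOP p183AT replicate 3, 0 clusters were called in this difference. The 11 combination genes had a median of 0.07 in mESCs, where Chrnb1 was at 0.15, Sema7a at 0.23 and Helt at 0.17, and 0 were called in the difference between lines. The 12 named targets had a median of 0.03, with 7 above 0 and 5 below.

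Small nucleolar RNAs lay on the other side in mESCs. Of 73, 58 were below 0 and 15 above, where 46.7% of all clusters were below and 53.3% above, the median was -0.25, and 23 were lower at an unadjusted p under 0.05, where 2.37% of all clusters were. The difference between the lines had a median of 0.70, and 37 RNAs were higher in iMOP cells at an unadjusted p under 0.05 (1.85% of all clusters), 70 were above 0 (45.7% of all clusters), but 0 were called. Among the 73, Snora44 had the largest difference between the lines, at 0.85 in iMOP cells and -0.99 in mESCs. Over clusters of at least log2 6 on at least 3 iMOP arrays, without the vector's genes, log2 fold changes in both lines had a Pearson's r of -0.05 and a Spearman's rho of 0.07, with 52.4% of the same sign.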

How the data were processed

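RNA of sorted or untransfected cells was hybridised to GeneChip Mouse Gene ST arrays. The authors deposited log2 values, for which the submitters' processing notes name RMA and Affymetrix Expression Console 1.4.1.46, and these were used as deposited. All 30 columns were matched to samples by label. The sources used here do not say which arrays RMA took together. The number of arrays, 3 per group, limits the precision.

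The 15 iMOP arrays were fitted in R 4.3.3 by limma 3.58.1, and moderated tests were followed by Benjamini-Hochberg adjustment over 25341 clusters and a threshold of 0.05. mESC values came from the 15 mESC arrays and the difference between lines from all 30. For list members with several clusters the one of highest mean over iMOP arrays is reported, while a cluster named for the size of its difference is reported as such. The scripts were tested on simulated data. The members and lists were chosen with earlier results of these data known. The 18 lists hold 320 listed genes, 295 of them measured on a cluster of their own. Genes were named by a rule: the vector's genes, the genes named by the study for the combination or as targets, up to 15 clusters of largest difference in each direction, up to 4 members of each other list, and the 10 and 5 largest of the averaged effect and of the differences between settings and lines. Other members of the lists named in the text were added after their values were seen.

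Replicate numbers in the labels were checked as pairs. Deviations of same-numbered arrays correlated at -0.20, 0.04 and 0.05 between pAT and p183AT, so these were taken as unpaired, and at 0.32, 0.25 and 0.15 between pT and p183T.

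The alternatives tried were a single fit over all arrays, the compared groups alone, a replicate block, a stricter filter (log2 6 or more on 3 or more arrays), 1 cluster per symbol, quantile normalization again, eBayes with a trend, array weights, the methods' one-way test and each array left out. List medians without each array and the likeness among protein-coding genes were added after seeing the data.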

Additional observations from a re-analysis of the deposited data

Results flagged for a closer look

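The gain of Mir96 from pAT to p183AT differed between the cell lines, by a test of the difference itself: it was lower by 2.59 on the log2 scale in iMOP cells than in mESCs (log2 difference -2.59, SE 0.40, limma adjusted p = 0.00959). The gain was 3.04 in iMOP cells and 5.62 in mESCs, and every p183AT array lay above every pAT array in both lines. The call was lost when only the compared groups were fitted, after quantile normalization again, and without mESC pAT replicate 1 or 2, iMOP pAT replicate 2 or iMOP p183AT replicate 3. For Mir182 and Mir183 the same differences were -1.78 and -0.99 and were not called.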

How the results depend on the processing

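The 3 hairpins were called in p183AT against pAT under every alternative limma fit that was run. The count of calls was 6 with all 30 arrays in one fit, which added Chrnb1 (adjusted p = 0.00274), Sema7a (0.0126) and Gm19624 (0.0211). It was 115 at an unadjusted p under 0.06 with a fold of 1.5 or more, and 63 and, after adjustment, 0 with the methods' test. With an array left out it ranged from 3 to 4, and the added cluster was Defa40 without pAT replicate 1, Chrnb1 without pAT replicate 2 and Gm19624 without p183AT replicate 2. Array weights added a dim cluster, Olfr1359, as lower (4 calls), and without Atoh1 another, Olfr553 (4 calls). The ranges were 3 to 4 without Atoh1, 3 to 5 for the averaged effect, 0 to 1 for the difference between settings (1 without p183AT replicate 1) and 0 to 2 for the difference between lines. The last was 0 with only the compared groups fitted and with quantile normalization again. With the replicate number as a block the counts were 3 in each iMOP comparison and in the averaged effect, which lost its dim cluster, 0 between settings and 1 between lines, so the block changed no other call. The cluster with 2 symbols that was lower in the averaged effect was also not called with only the compared groups fitted, with all 30 arrays in one fit, under the stricter filter, which leaves it out, with array weights, where Olfr1359 was called instead, and without most single arrays.

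The likeness with p183T against pT, 0.128 over all clusters, was 0.0871 without the vector's genes, 0.42 over clusters of log2 6 or more on 3 or more arrays, 0.34 with both and also with the within-group axis removed, and 0.30 among protein-coding genes other than ribosomal protein genes. Without single arrays it ranged from 0.0551 (without p183AT replicate 2) to 0.154. Removing the axis could hardly change the value, since the axis was nearly uncorrelated with both comparisons. Of 1726 alternative values of 127 named clusters, 5 became called and 1 moved by at least the SD between replicates without a call. The other 1720 stayed called or, for uncalled clusters, moved by less than that SD. Values near the dim limit carry little signal, and with 3 arrays per group and a median SE of 0.16 small target effects could not be called.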
